A study of Mus musculus with 12 samples.

Results

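The genes described here are 44 genes of lysosomes and autophagy, listed by role as proteases, sugar hydrolases, lipid-handling proteins, membrane proteins, subunits of the proton pump, autophagy proteins and the regulator Tfeb. A gene was measured by the probe set that carries its symbol alone, and by the brightest one where several did. Of the 44 genes, 43 were measured this way, out of 22180 genes in all, and all 43 passed a filter on dim probe sets that kept 17469 genes for testing. Glb1 shares its probe set with other symbols and is not analysed here. They were measured on Affymetrix arrays in primary cultures of neurons taken from embryonic brain of the outbred mouse stock ICR (CD-1). The drug groups were amitriptyline at 5 µM, imipramine at 5 µM, citalopram at 10 µM, mirtazapine at 50 µM and duloxetine at 0.1 µM, each given at day in vitro 3 with harvest 48 h later at day in vitro 5, and the last group was control. Each of the 6 groups had 2 arrays, 12 in all, and the sources used here do not say what was added to the control cultures. Nor do the labels say whether the 2 arrays of a group came from separate cultures, so a p-value here reflects only how far these samples spread, which may be technical. Values are RMA log2 values, and a difference of 1 on that scale is a change of 2-fold.

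Lysosomes are acidic organelles in which hydrolases break down proteins, sugars and lipids, and autophagy delivers cytoplasm to them in double-membraned vesicles. A proton pump, the V-ATPase, keeps them acidic. The transcription factor TFEB and its relatives switch on many lysosomal and autophagy genes through a short promoter element, the CLEAR motif, when lysosomes are stressed or nutrients run short. Amitriptyline, imipramine, citalopram, mirtazapine and duloxetine are amines with a fat-soluble part. Cationic amphiphilic amines are known to collect in lysosomes, where some cause phospholipid storage, and the tricyclics amitriptyline and imipramine are known to reduce the activity of acid sphingomyelinase, the product of Smpd1.

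The promoters show which of these genes carry the CLEAR letters. Promoter sequences of 300 bases, reaching 250 bases upstream of the annotated start, came from RefSeq (mouse build GRCm38.p6) and were found for 37 of the 44 listed genes, as 43 promoters. The letters TCACGTG, the core of the CLEAR motif, were searched on both strands. They stood in 13 of the 43 promoters (30.2%), against 3.77% of all 32851 promoters in the table. The genes were Atp6v0d1, Atp6v1a, Cln3, Ctsa, Ctsd, Gaa, Gla, Glb1, Lamp1, Lgmn, Mcoln1, Naglu and Sgsh. TCACGTG contains the E-box CACGTG, which stood in 37.2% of the 43 promoters and in 7.15% of all. The listed genes are of a kind known to be switched on through the CLEAR motif, so these shares describe the list and are not a test. A second element, TCATGTG (the core of the M-box, an element bound by MITF, a relative of TFEB), stood in the promoters of Ctsa, Gla, Scarb2 and Tpp1 (9.3% of the 43, against 3.77% of all). Promoter stretches with the element are, for 4 genes, printed 5′ to 3′ on the gene's strand, with CACGTG (Lamp1) or TCACGTG on either strand (the others) in capitals. They lie just upstream of the start of Lamp1 (chr8:13159091-13159160, plus strand), Mcoln1 (chr8:3500439-3500489, plus strand), Ctsd (chr7:142387907-142387942, minus strand) and Naglu (chr11:101070004-101070039, plus strand).
Lamp1: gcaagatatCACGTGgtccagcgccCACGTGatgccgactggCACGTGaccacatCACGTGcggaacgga
Mcoln1: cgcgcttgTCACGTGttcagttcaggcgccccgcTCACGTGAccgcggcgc
Ctsd: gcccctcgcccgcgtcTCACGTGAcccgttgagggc
Naglu: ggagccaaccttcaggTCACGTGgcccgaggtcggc

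The 100 bases before the start of Gpnmb (chr6:49036418-49036517, plus strand) and Wipi1 (chr11:109611390-109611489, minus strand) are printed because these 2 genes passed the test described below. Neither TCACGTG nor TCATGTG occurred in their 300-base windows, so they have no capitals, and this says nothing about the factors themselves.
Gpnmb: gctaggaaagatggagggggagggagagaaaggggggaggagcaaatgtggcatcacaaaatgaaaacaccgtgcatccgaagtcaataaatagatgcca
Wipi1: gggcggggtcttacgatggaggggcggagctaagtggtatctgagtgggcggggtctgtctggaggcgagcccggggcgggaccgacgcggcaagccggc

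The cultures carried the markers of neurons, with 12 of 12 neuron markers past the filter, and of other brain cells. In these mixed cultures a change in the number of cells of a type and a change in RNA per cell cannot be told apart. Mean log2 levels of 10 astrocyte markers lay 0.18 to 0.47 below the control mean on the amitriptyline, imipramine, citalopram and mirtazapine arrays, and from 0.004 below to 0.04 above it on the duloxetine arrays. Mean levels of 7 measured proliferation markers lay 0.41 to 0.72 below the control mean on the same 8 arrays and 0.04 and 0.29 below it on the duloxetine arrays. The 9 measured oligodendrocyte lineage markers lay 0.31 to 0.50 below the control mean on these 8 arrays and 0.27 and 0.33 above it on the duloxetine arrays. The control arrays lay within 0.04 of their mean for the astrocyte markers, within 0.09 for the proliferation markers and within 0.22 for the oligodendrocyte lineage markers. The part of these cells in the results that follow was not tested. Duloxetine replicate 2 and mirtazapine replicate 2 stood apart from the other arrays along the first principal component (52.5% of the variance), at 32.6 and 36.4 against −13.3 to 3.9 for the rest. Their scale was also narrower. The slope of each on the mean of the other arrays was 0.923 and 0.908, against 0.997 to 1.029 for the rest. Their upper quartiles were 8.21 and 8.20, against 8.31 to 8.37. Bright genes thus tended to read low on these 2 arrays and dim genes high. The part of this in the differences below was not tested. All comparisons with control share the same 2 control arrays, so the drugs' values are set side by side without a test of their likeness.

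As a group, the lysosome and autophagy genes stayed close to control. The median log2 difference of the 43 genes was 0.00 with amitriptyline, 0.03 with imipramine, 0.04 with citalopram, −0.02 with mirtazapine and −0.04 with duloxetine, against −0.02, −0.01, −0.01, −0.04 and −0.02 over all genes tested with the same drugs. The 2 control arrays themselves lay 0.06 below and 0.06 above their mean for the median member, with 35 of 43 members below the mean in replicate 1 and 35 above it in replicate 2. On the drug arrays the median member lay between −0.08 (duloxetine replicate 2) and 0.04 (imipramine replicate 1), so only duloxetine replicate 2 lay outside the span of the controls. The 95% interval of a single member's difference was 0.24 log2 units on each side at the median of the 43 interval widths; it is not an interval of the group medians.

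**Figure D1:**
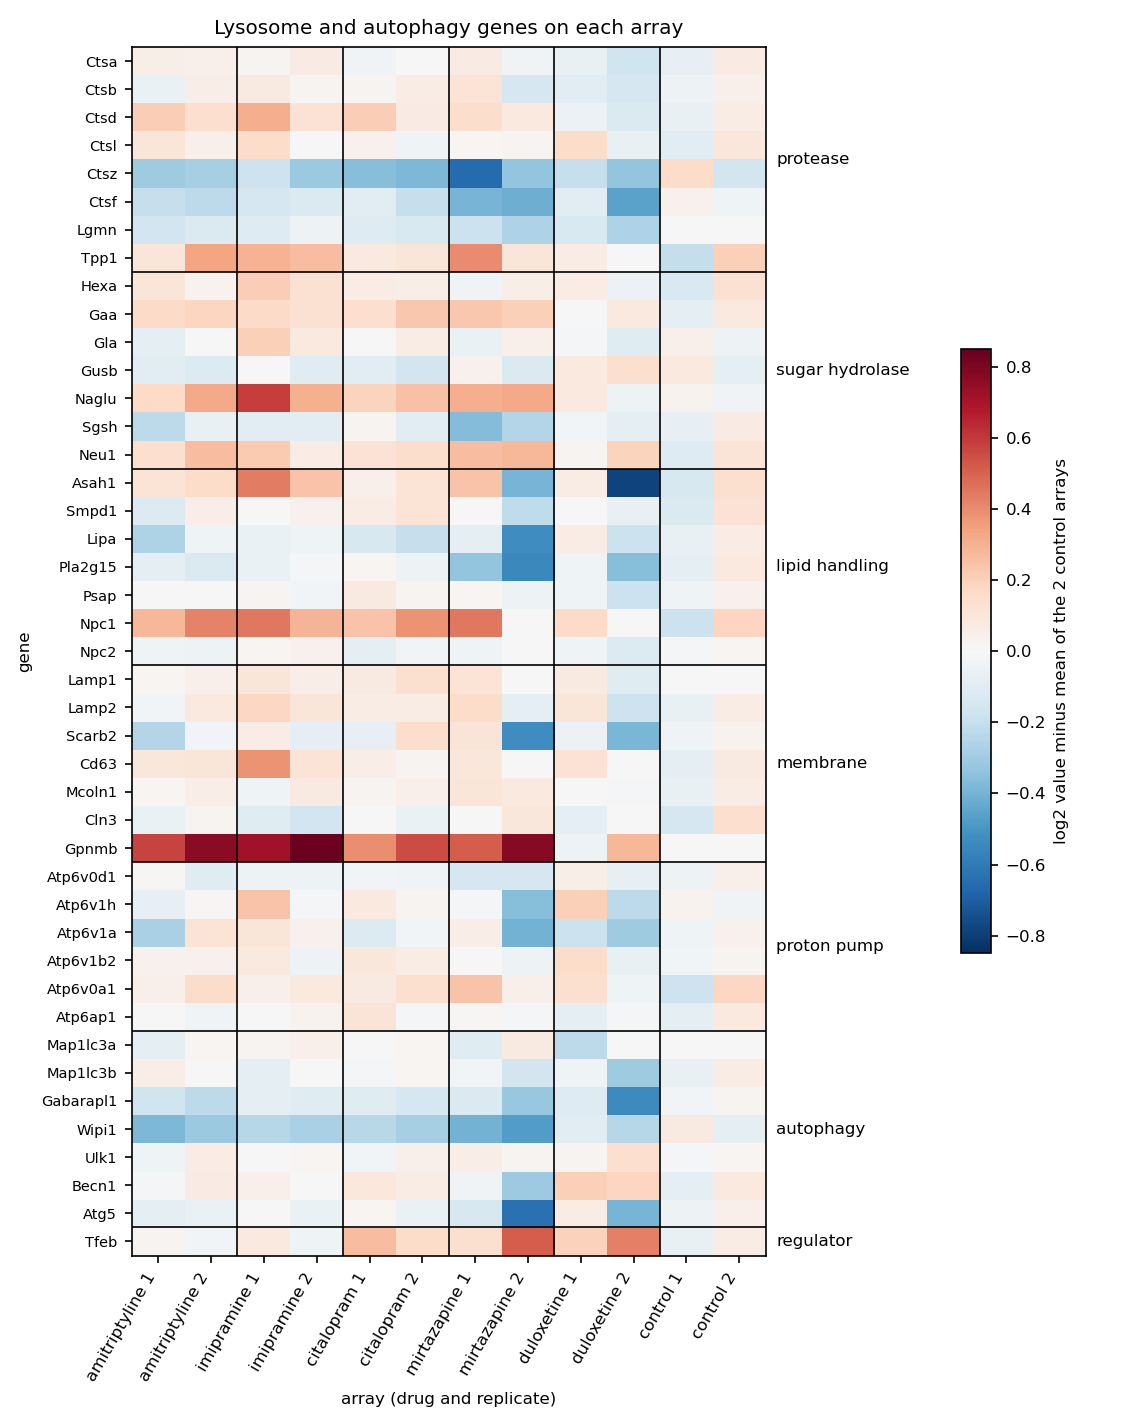
Log2 value of each of the 43 measured genes (rows, grouped by role) on each of the 12 arrays (columns, drugs left, control right), minus the mean of the 2 control arrays of that gene; red is above and blue below that mean. Most rows are pale, Gpnmb is red on all 8 amitriptyline, imipramine, citalopram and mirtazapine arrays, and Wipi1 is blue on all 10 drug arrays.

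Under mirtazapine, 1 member rose and 1 fell (limma, adjusted p under 0.05 over all 17469 genes), where 1.74% of all tested genes were called (0.269% higher and 1.47% lower). No member was called under amitriptyline (0.0% of all genes), imipramine (0.0286%), citalopram (0.0%) or duloxetine (0.0%). At an unadjusted p under 0.05 the counts were 11 of 43 members under mirtazapine (22.4% of all genes), 2 under amitriptyline (6.14%), 5 under imipramine (4.56%), 3 under citalopram (4.44%) and 4 under duloxetine (10.0%). The members' share was above the background under imipramine, citalopram and mirtazapine, most so in proportion under imipramine. It was below the background under amitriptyline and duloxetine. These are small counts, and the shares were not tested against the background. The mean of the 5 drugs against control (0.0515% of all genes called, 0.0286% higher and 0.0229% lower) and the F test over the 6 groups (0.103%) also called 0 members, with 6 members at an unadjusted p under 0.05 for the mean of the drugs, against 8.92% of all genes.

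The arrays of a drug lay wholly to 1 side of the control arrays for a minority of members. With mirtazapine 8 members lay above control on both arrays (22.6% of all genes) and 10 below (30.6%). With amitriptyline 9 lay above (14.1%) and 8 below (24.2%), and with imipramine 12 above (14.3%) and 6 below (19.1%). With citalopram 9 lay above (17.0%) and 8 below (22.1%), and with duloxetine 3 above (15.5%) and 9 below (18.3%). Over all 10 drug arrays together, 0 members lay above both control arrays (1.06% of all genes) and 5 below (3.67%), namely Ctsz, Ctsf, Lgmn, Gabarapl1 and Wipi1.

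Gpnmb, a membrane glycoprotein of lysosomes and melanosomes that is known in macrophages as a marker of lysosomal stress, stood highest of the members in its difference from control with each drug but duloxetine. Its log2 values were 7.53 and 7.79 with mirtazapine, 7.59 and 7.78 with amitriptyline, 7.73 and 7.85 with imipramine, 7.41 and 7.57 with citalopram, 6.97 and 7.30 with duloxetine, and 7.01 and 7.02 in control. All 8 arrays of the first 4 drugs lay above both control arrays, and only the duloxetine arrays overlapped control. It rose by 0.65 ± 0.14 (SE; 95% interval 0.34 to 0.95) with mirtazapine, 1.56-fold (limma, adjusted p = 0.0485). The differences were at least as large with amitriptyline, 0.67 (0.37 to 0.97; 1.59-fold, adjusted p = 0.126), and imipramine, 0.78 (0.47 to 1.08; 1.71-fold, adjusted p = 0.105), without passing the test. With citalopram the difference was 0.48 (0.17 to 0.78; 1.39-fold, adjusted p = 0.654) and with duloxetine 0.12 (−0.18 to 0.42; adjusted p = 0.712). Over the mean of the 5 drugs it was 0.54 (adjusted p = 0.0928), and the F test gave an adjusted p of 0.12.

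The Gpnmb call under mirtazapine lay at the edge of the threshold. It held without either duloxetine array or mirtazapine replicate 1 (adjusted p from 0.0157 to 0.0308, with 7.59% of all genes called without a duloxetine array and 8.3% without mirtazapine replicate 1) and was lost without any other single array (up to 0.289), while the difference stayed between 0.52 and 0.78. Conversely, without either duloxetine array the imipramine difference passed (adjusted p = 0.0444, 0.166% of all genes called). With the 2 arrays that stand apart left out, Gpnmb passed under amitriptyline (0.0268, 1.31% of all genes called) and imipramine (0.026, 0.481%). The mirtazapine difference then rested on replicate 1 alone, at 0.515, and was no longer called. Microglia and macrophage markers, of which 15 of 16 passed the filter and Ptprc did not, averaged 0.05 and 0.15 above the control mean on the mirtazapine arrays. They lay 0.02 above and 0.02 below it on the amitriptyline arrays, and 0.03 above and 0.08 below on the imipramine arrays. On the citalopram arrays they lay 0.02 and 0.05 below it, and on the duloxetine arrays 0.11 below and 0.10 above. The control arrays lay 0.09 above and 0.09 below that mean, so mirtazapine replicate 2 and both duloxetine arrays lay outside their span. The part of these cells in the Gpnmb values was not tested.

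Wipi1, which binds a phosphoinositide on forming autophagosomes, was the member that fell. It had log2 values of 7.60 and 7.53 with mirtazapine, 7.62 and 7.69 with amitriptyline, 7.76 and 7.73 with imipramine, 7.77 and 7.72 with citalopram, 7.91 and 7.76 with duloxetine, and 8.08 and 7.93 in control. All 10 drug arrays lay below both control arrays. The difference was −0.44 ± 0.09 (SE; −0.65 to −0.23; 0.737-fold, adjusted p = 0.0484) with mirtazapine. It was −0.35 (adjusted p = 0.253) with amitriptyline, −0.26 (0.735) with imipramine, −0.26 (0.863) with citalopram and −0.17 (0.519) with duloxetine. The mirtazapine call held without either duloxetine array or mirtazapine replicate 1 (adjusted p from 0.0213 to 0.0411) and was lost without any other single array (up to 0.286).

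**Figure D2:**
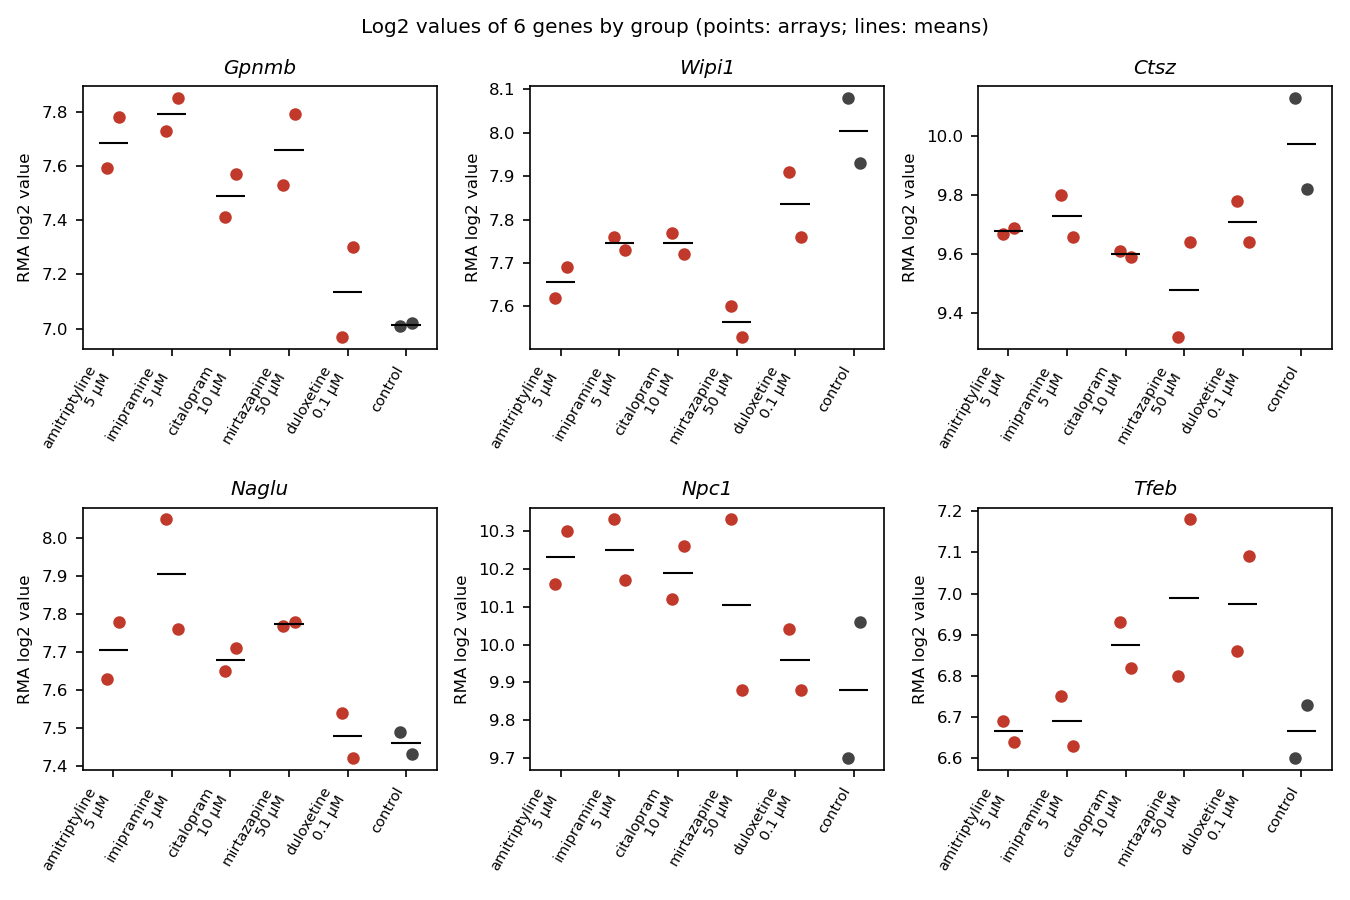
RMA log2 values (vertical axes, one scale per gene) of Gpnmb, Wipi1, Ctsz, Naglu, Npc1 and Tfeb in the 5 drug groups (red points, one per array, with the dose under each name) and control (grey points at the right), with lines at the group means. Gpnmb lies above control on the arrays of 4 drugs, Wipi1 and Ctsz lie below it on all 10 drug arrays, and the mirtazapine arrays of Npc1 and Tfeb lie far apart.

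The 8 proteases had a median difference of 0.02 with amitriptyline, 0.05 with imipramine, −0.01 with citalopram, 0.00 with mirtazapine and −0.12 with duloxetine, and none was called. Ctsz, the carboxypeptidase cathepsin Z, had log2 values of 9.32 and 9.64 with mirtazapine, 9.67 and 9.69 with amitriptyline, 9.80 and 9.66 with imipramine, 9.61 and 9.59 with citalopram, 9.78 and 9.64 with duloxetine, and 10.13 and 9.82 in control. Every drug array lay below both control arrays, which were 0.31 apart. The mirtazapine difference was −0.50 (−0.79 to −0.20, 0.71-fold, limma, adjusted p = 0.0932). It was −0.655 in replicate 1 alone and −0.335 in replicate 2 alone. With the 2 arrays that stand apart left out, it rested on replicate 1. The citalopram difference was −0.38 (−0.67 to −0.08; adjusted p = 0.863), and those with amitriptyline, imipramine and duloxetine were −0.30, −0.25 and −0.27.

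Ctsf, the cysteine protease cathepsin F, had log2 values of 8.47 and 8.45 with mirtazapine, 8.67 and 8.64 with amitriptyline, 8.72 and 8.74 with imipramine, 8.77 and 8.67 with citalopram, 8.77 and 8.41 with duloxetine, and 8.90 and 8.83 in control. All drug arrays lay below control. The difference was −0.41 with mirtazapine (adjusted p = 0.105, and a call when either duloxetine array was left out) and −0.28 with duloxetine (adjusted p = 0.492). Lgmn, the asparaginyl endopeptidase legumain, read 9.73 and 9.65 with mirtazapine, 9.75 and 9.79 with amitriptyline, 9.80 and 9.87 with imipramine, 9.80 and 9.78 with citalopram, 9.78 and 9.65 with duloxetine, and 9.91 on both control arrays. Here too the drug arrays lay below control, by 0.22 with mirtazapine (adjusted p = 0.18) and 0.20 with duloxetine (adjusted p = 0.494) on average. Ctsd, the major aspartic protease cathepsin D whose CLEAR letters are printed above, differed by 0.18 with amitriptyline, 0.22 with imipramine, 0.14 with citalopram, 0.12 with mirtazapine and −0.09 with duloxetine. The remaining proteases Ctsa, Ctsb, Ctsl and Tpp1 had no adjusted p under 0.3 with any drug.

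The 7 measured sugar hydrolases had a median difference of 0.07 with amitriptyline, 0.15 with imipramine, 0.06 with citalopram, 0.01 with mirtazapine and 0.02 with duloxetine. Naglu, which removes N-acetylglucosamine from heparan sulfate, had log2 values of 8.05 and 7.76 with imipramine, 7.63 and 7.78 with amitriptyline, 7.65 and 7.71 with citalopram, 7.77 and 7.78 with mirtazapine, 7.54 and 7.42 with duloxetine, and 7.49 and 7.43 in control. As with Gpnmb, the arrays of 4 drugs lay above both control arrays and the duloxetine arrays overlapped them. The difference was 0.45 (0.20 to 0.69; 1.36-fold, adjusted p = 0.291) with imipramine, 0.25 (adjusted p = 0.814) with amitriptyline, 0.22 (adjusted p = 1.0) with citalopram, 0.32 (0.07 to 0.56; adjusted p = 0.155) with mirtazapine and 0.02 with duloxetine. None passed the test.

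Gaa, the acid glucosidase that breaks down glycogen, read 10.35 and 10.44 with citalopram, 10.37 and 10.39 with amitriptyline, 10.37 and 10.34 with imipramine, 10.44 and 10.41 with mirtazapine, 10.21 and 10.29 with duloxetine, and 10.13 and 10.29 in control. The arrays of 4 drugs lay above control, by 0.19 (adjusted p = 1.0) with citalopram and 0.22 (adjusted p = 0.196) with mirtazapine on average. The sulfatase Sgsh, which also acts on heparan sulfate, differed the other way with mirtazapine, by −0.31 (7.31 and 7.43, against 7.61 and 7.75 in control; adjusted p = 0.126). Neu1, the lysosomal sialidase, differed by 0.27 with mirtazapine (9.15 and 9.17, against 8.78 and 9.0 in control; adjusted p = 0.19). Gla, Gusb and Hexa had no unadjusted p under 0.05 in any comparison with control.

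The 7 lipid-handling genes include the enzyme most often linked to the tricyclics. Smpd1, acid sphingomyelinase, had log2 values of 10.46 and 10.63 with amitriptyline, 10.57 and 10.61 with imipramine, 10.64 and 10.69 with citalopram, 10.58 and 10.36 with mirtazapine, 10.58 and 10.51 with duloxetine, and 10.45 and 10.70 in control. All drug groups overlapped control. The differences were −0.03 (−0.29 to 0.23) with amitriptyline and 0.02 (−0.24 to 0.27) with imipramine, and lay between −0.11 (−0.36 to 0.15) with mirtazapine and 0.09 (−0.17 to 0.35) with citalopram. The intervals are wide enough to hold changes in either direction. A second, dimmer probe set of Smpd1 differed by −0.11 with amitriptyline, −0.055 with imipramine, −0.02 with citalopram, −0.095 with mirtazapine and 0.14 with duloxetine. The 2 probe sets thus differed in sign with imipramine, citalopram and duloxetine. Asah1, acid ceramidase, acts one step later in sphingomyelin breakdown. It read 9.32 and 9.36 with amitriptyline, 9.64 and 9.45 with imipramine, 9.25 and 9.32 with citalopram, 9.45 and 8.81 with mirtazapine, 9.27 and 8.42 with duloxetine, and 9.07 and 9.34 in control. Both imipramine arrays lay above control (difference 0.34, −0.25 to 0.93, adjusted p = 1.0), and the 2 lowest values came from the arrays that stand apart. With mirtazapine the difference was −0.08 (−0.66 to 0.51) and with duloxetine −0.36 (−0.95 to 0.23).

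Pla2g15, a phospholipase of lysosomes that several cationic amphiphilic drugs are known to inhibit, had log2 values of 8.72 and 8.51 with mirtazapine, 8.97 and 8.93 with amitriptyline, 9.0 and 9.04 with imipramine, 9.07 and 9.01 with citalopram, 9.02 and 8.69 with duloxetine, and 8.97 and 9.14 in control. Both mirtazapine arrays lay below control, and the other groups overlapped it. The mirtazapine difference was −0.44 (−0.71 to −0.17; 0.737-fold, adjusted p = 0.103), and it passed when either duloxetine array was left out (adjusted p = 0.0329, where 7.59% of all genes were called). The differences were −0.11 with amitriptyline, −0.04 with imipramine, −0.02 with citalopram and −0.20 with duloxetine. A second, dimmer probe set of Pla2g15 differed by −0.25 with mirtazapine, −0.01 with amitriptyline, −0.21 with imipramine, −0.24 with citalopram and −0.12 with duloxetine, so the probe sets of this gene did not give the same order of drugs.

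Npc1, the membrane protein that exports cholesterol from lysosomes, had log2 values of 10.16 and 10.30 with amitriptyline, 10.33 and 10.17 with imipramine, 10.12 and 10.26 with citalopram, 10.33 and 9.88 with mirtazapine, 10.04 and 9.88 with duloxetine, and 9.70 and 10.06 in control. The arrays of amitriptyline, imipramine and citalopram lay above both control arrays, which were 0.36 apart. The differences were 0.35 (−0.02 to 0.72; adjusted p = 0.855) with amitriptyline, 0.37 (0.003 to 0.74; adjusted p = 1.0) with imipramine, 0.31 (−0.06 to 0.68; adjusted p = 1.0) with citalopram, 0.23 with mirtazapine and 0.08 with duloxetine. A second probe set of Npc1 differed by 0.25 with amitriptyline, 0.25 with imipramine, 0.12 with citalopram, 0.15 with mirtazapine and −0.03 with duloxetine. Its soluble partner Npc2 and the saposin precursor Psap had no unadjusted p under 0.05 with any drug. Lipa, the lysosomal acid lipase, differed by −0.31 with mirtazapine (8.99 and 8.55, against 9.01 and 9.14 in control; adjusted p = 0.249), of which replicate 1 alone gave −0.09 and replicate 2, which stands apart, −0.53.

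None of the other 6 membrane proteins was called. Lamp1, an abundant protein of the lysosomal membrane with 4 E-boxes in the stretch printed above, read 11.61 and 11.64 with amitriptyline, 11.7 and 11.65 with imipramine, 11.67 and 11.73 with citalopram, 11.71 and 11.59 with mirtazapine, 11.67 and 11.49 with duloxetine, and 11.59 and 11.60 in control. Its differences lay between −0.02 (−0.22 to 0.19) with duloxetine and 0.11 (−0.10 to 0.31) with citalopram. Cd63, a tetraspanin of late endosomes and lysosomes, read 10.91 and 10.64 with imipramine, 10.62 and 10.63 with amitriptyline, 10.58 and 10.55 with citalopram, 10.62 and 10.53 with mirtazapine, 10.65 and 10.52 with duloxetine, and 10.45 and 10.60 in control. The imipramine difference of 0.25 (0.01 to 0.49; adjusted p = 1.0) rested on replicate 1. Lamp2, Scarb2, Mcoln1 and Cln3 had no unadjusted p under 0.05 with any drug, and the CLEAR-bearing calcium channel gene Mcoln1 differed by at most 0.10 from control.

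**Figure D3:**
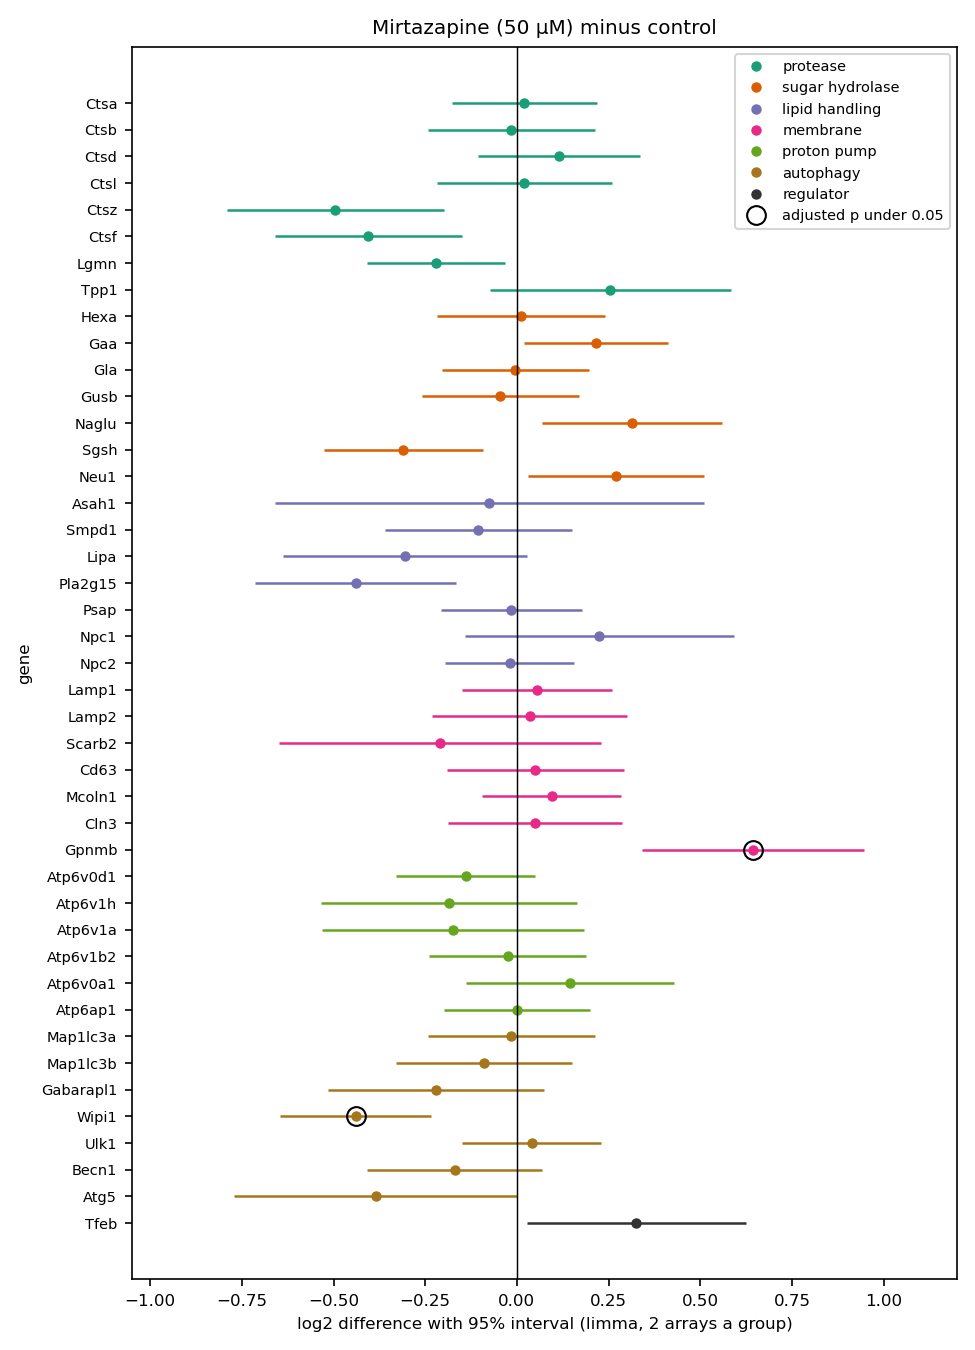
Mirtazapine minus control for the 43 genes: log2 difference (points, horizontal axis) with its 95% interval (lines) from limma, 2 arrays a group, coloured by role. The rings mark Gpnmb at 0.65 and Wipi1 at −0.44, which passed an adjusted p of 0.05.

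None of the 6 proton pump genes was called. Their median difference was −0.02 with amitriptyline, 0.04 with imipramine, 0.05 with citalopram, −0.08 with mirtazapine and −0.01 with duloxetine. All 30 differences lay between −0.25 (Atp6v1a, duloxetine) and 0.15 (Atp6v0a1, mirtazapine), and 0 of the 6 genes reached an unadjusted p of 0.05 with any drug.

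Of the 7 autophagy genes, Wipi1 alone passed a test. Their median difference was −0.03 with amitriptyline, −0.03 with imipramine, 0.00 with citalopram, −0.17 with mirtazapine and −0.17 with duloxetine. Replicate 2, which stands apart in both groups, gave −0.31 with mirtazapine and −0.25 with duloxetine, and replicate 1 gave −0.11 and −0.04. Gabarapl1, an ATG8-family protein of autophagosome membranes, had log2 values of 11.38 and 11.18 with mirtazapine, 11.33 and 11.28 with amitriptyline, 11.42 and 11.40 with imipramine, 11.40 and 11.35 with citalopram, 11.39 and 10.96 with duloxetine, and 11.48 and 11.52 in control. All drug arrays lay below control. The duloxetine difference of −0.33 (−0.62 to −0.03; adjusted p = 0.492) was mostly that of replicate 2: the difference of replicate 2 alone was −0.54 and that of replicate 1 alone −0.11. With replicate 1 left out, Gabarapl1 and Ctsf passed under duloxetine, which is 2 of 43 members where 11.7% of all genes were called. Atg5, part of the machinery that conjugates ATG8 proteins, differed by −0.39 with mirtazapine (8.14 and 7.64, against 8.23 and 8.32 in control; adjusted p = 0.224), and its lowest values, 7.64 and 7.88, came from the 2 arrays that stand apart. Map1lc3a, Map1lc3b, Ulk1 and Becn1 had no unadjusted p under 0.05 with any drug.

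Tfeb had log2 values of 6.69 and 6.64 with amitriptyline, 6.75 and 6.63 with imipramine, 6.93 and 6.82 with citalopram, 6.80 and 7.18 with mirtazapine, 6.86 and 7.09 with duloxetine, and 6.60 and 6.73 in control. The citalopram, mirtazapine and duloxetine arrays lay above control, with the highest values on the 2 arrays that stand apart, and the tricyclic arrays overlapped it. The difference was 0.00 (−0.30 to 0.30) with amitriptyline, 0.03 (−0.27 to 0.32) with imipramine, 0.21 (adjusted p = 1.0) with citalopram, 0.33 (0.03 to 0.62; 1.25-fold, adjusted p = 0.198) with mirtazapine and 0.31 (0.01 to 0.61; 1.24-fold, adjusted p = 0.494) with duloxetine. The activity of TFEB is known to be set largely by its location in the cell, which these arrays do not measure. With mirtazapine replicate 1 left out, the difference rested on replicate 2 alone and passed (0.52, adjusted p = 0.0457), where 8.3% of all genes were called.

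Members with and without the CLEAR letters had medians close to each other. For the 12 measured members with TCACGTG the median difference was 0.01 with amitriptyline, 0.06 with imipramine, 0.01 with citalopram, 0.04 with mirtazapine and −0.04 with duloxetine. For the 24 members with a promoter entry and without these letters it was −0.01, 0.01, 0.03, −0.02 and −0.04 with the same drugs. Both Gpnmb and Wipi1 belong to the second group.

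Amitriptyline and imipramine are the 1 pair of drugs given at the same dose and time. Both are tricyclics with the same dimethylaminopropyl side chain. In imipramine the chain hangs on a nitrogen of the central ring, and in amitriptyline it is joined through a double bond to a central ring made of carbon. No member differed between them by the test (0.0% of all genes called), and 0 of 43 reached an unadjusted p of 0.05 (1.21% of all genes). Amitriptyline was below imipramine for 33 members and above it for 9, where it was above for 40.7% of all tested genes. The median difference was −0.05 against −0.02 over all genes, and the range ran from −0.21 (Asah1) to 0.12 (Cln3). Every amitriptyline array lay below every imipramine array for 13 members (20.3% of all genes) and above for 1 (12.4% of all genes).

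The lowest p-value of that pair was that of Gla, the galactosidase that is deficient in Fabry disease. It had log2 values of 8.42 and 8.49 with amitriptyline, against 8.70 and 8.58 with imipramine, a difference of −0.19 (−0.39 to 0.02; limma, adjusted p = 1.0). The groups did not overlap, and control, at 8.54 and 8.45, overlapped amitriptyline and lay below imipramine. Cln3, the membrane protein deficient in a juvenile storage disease of neurons, read 9.17 and 9.25 with amitriptyline, against 9.12 and 9.06 with imipramine (0.12, −0.12 to 0.36). Naglu differed by −0.20 (−0.45 to 0.05) and Cd63 by −0.15 (−0.39 to 0.09). For Gpnmb the difference was −0.11 (−0.41 to 0.20), for Smpd1 −0.05 (−0.30 to 0.21) and for Npc1 −0.02 (−0.39 to 0.35). Missing the threshold does not show that the 2 drugs act alike, since the intervals above reach well past 0 to either side for most genes.

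**Figure D4:**
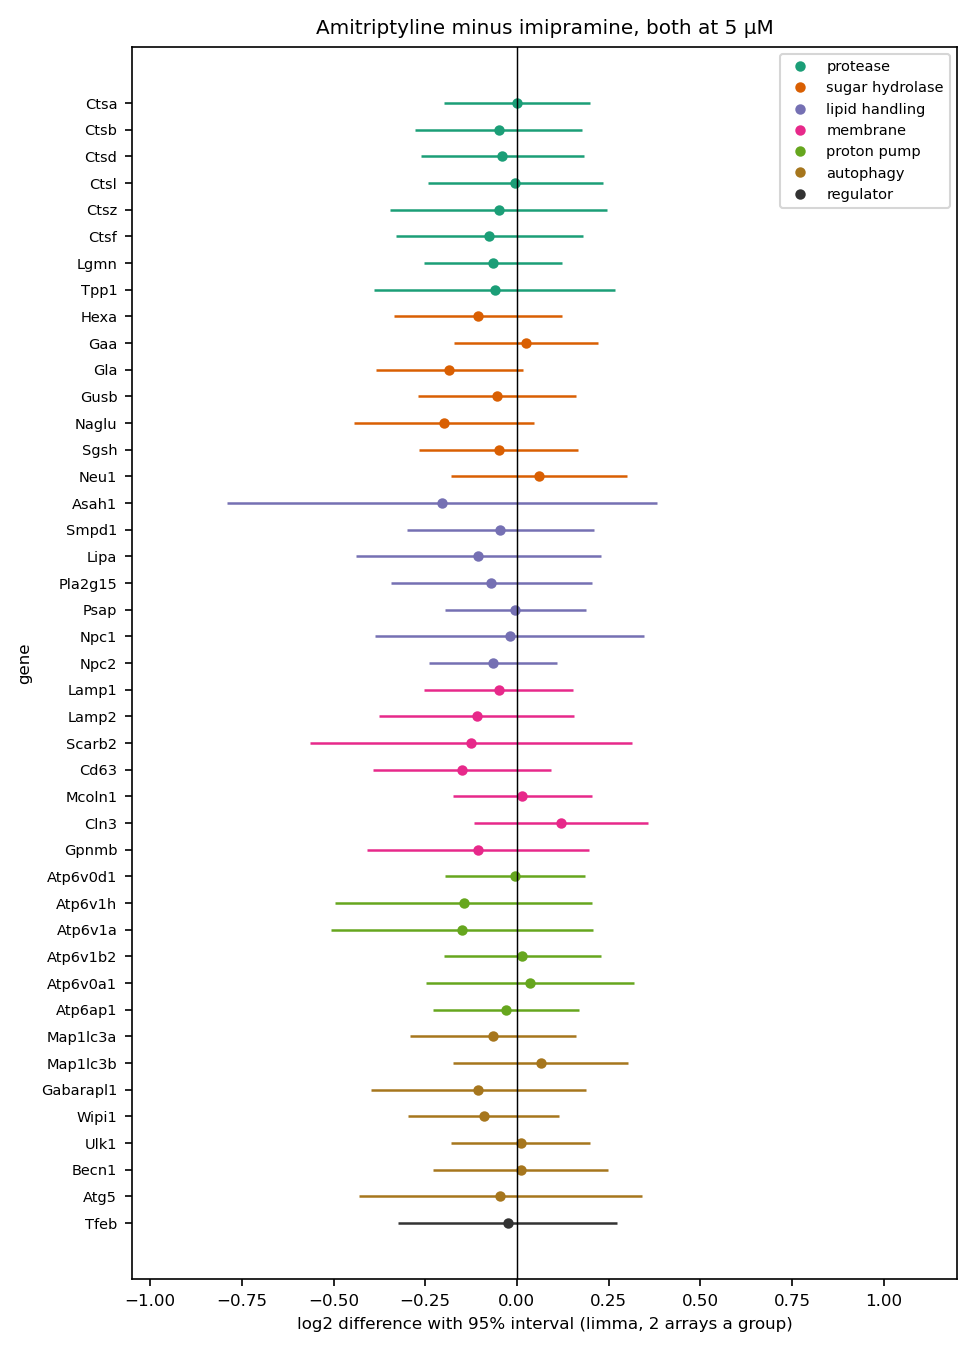
Amitriptyline minus imipramine, both at 5 µM for 48 h, for the 43 genes: log2 difference (points, horizontal axis) with its 95% interval (lines) from limma, coloured by role. Every interval includes 0, and the points lie between −0.21 and 0.12.

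Beyond the 43 members, 141 tested genes on 6 related lists were read in the same fit: other lysosomal hydrolases, other membrane genes, other proton pump genes, other autophagy genes, genes of lysosome sorting and positioning, and genes of nutrient signalling at the lysosome. None of the 141 was called under any of the drugs by limma. With mirtazapine 102 of the 141 lay below control and 39 above, where 44.1% of all tested genes lay above. The median difference was −0.10 against −0.04 over all genes, and 26 had an unadjusted p under 0.05 (22.4% of all genes). The medians were −0.03 with amitriptyline, −0.01 with imipramine, −0.01 with citalopram and −0.07 with duloxetine. The list furthest from 0 with mirtazapine was that of other autophagy genes, at −0.14 over 38 genes, with 30 of them below control. The 2 mirtazapine arrays were unlike in this: the median of the 141 genes was −0.17 on replicate 2, which stands apart, with 109 below the control mean, and −0.04 on replicate 1, with 84 below. For the other autophagy genes these medians were −0.22 and −0.04. Likewise with duloxetine the median of the 141 was −0.15 on replicate 2 and −0.02 on replicate 1.

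Ctsc, the dipeptidyl peptidase cathepsin C, had the widest positive difference of the related genes with each drug but duloxetine. It had log2 values of 9.17 and 9.06 with imipramine, 8.87 and 8.99 with amitriptyline, 8.73 and 8.74 with citalopram, 8.92 and 8.46 with mirtazapine, 8.49 and 7.95 with duloxetine, and 7.96 and 8.37 in control. The arrays of 4 drugs lay above both control arrays and the duloxetine arrays overlapped them, as for Gpnmb and Naglu. The difference was 0.95 (1.93-fold, adjusted p = 0.19) with imipramine, 0.77 (1.7-fold, adjusted p = 0.253) with amitriptyline, 0.57 (adjusted p = 0.863) with citalopram and 0.53 (adjusted p = 0.181) with mirtazapine.

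Ctso, the cysteine protease cathepsin O, lay the other way, at 7.99 and 8.13 with amitriptyline, 8.07 and 8.20 with imipramine, 8.09 and 8.11 with citalopram, 7.98 and 8.17 with mirtazapine, 8.50 and 8.30 with duloxetine, and 8.77 and 8.42 in control. Its mirtazapine difference of −0.52 (adjusted p = 0.0838) and its amitriptyline difference of −0.54 (adjusted p = 0.22) missed the threshold. Sqstm1, the autophagy receptor p62, read 11.83 and 11.74 with amitriptyline, 11.89 and 11.75 with imipramine, 11.78 on both citalopram arrays, 11.80 and 11.79 with mirtazapine, 11.57 and 11.52 with duloxetine, and 11.55 and 11.57 in control. Its 8 arrays of the first 4 drugs lay above control by 0.22 to 0.26 on average, with an adjusted p of 0.635 for amitriptyline and 0.613 for imipramine. Cd68, a lysosomal membrane protein that is also on the microglia list, differed by 0.46 with mirtazapine (8.76 and 8.77, against 8.52 and 8.10 in control; adjusted p = 0.102), by 0.45 with amitriptyline and by 0.36 with imipramine. Atg10, which conjugates ATG5 to its partner, differed by −0.84 with mirtazapine (7.99 and 7.37, against 8.54 and 8.50 in control; adjusted p = 0.105), and by −0.53 in replicate 1 alone. Mitf, the relative of TFEB that acts on M-boxes, differed by 0.31 with mirtazapine (6.34 and 6.5, against 6.04 and 6.19 in control; adjusted p = 0.182).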

How the data were processed

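RNA of 12 samples was hybridised to 1-colour Affymetrix whole-transcript arrays, 2 for each of 6 groups, with groups and replicate numbers from the labels' titles. The authors deposited log2 values that they made with Affymetrix Expression Console and RMA, per the submitters' processing notes. The version, settings and build are not stated there (not given in the sources used here). RMA values carry no counts, so depth is unknown, and 2 arrays a group limit the precision. Another background correction was not possible from these values.

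Of 41345 probe sets, 23521 had 1 symbol, 1814 several and 16010 none, and 99.2% of those with 1 matched the RefSeq gene table. The probe set of highest mean stood for a gene, kept where its mean reached the 30th percentile (log2 5.72). A linear model of the 6 group means was fitted to all 12 arrays (limma 3.58.1 in R 4.3.3), with 6 residual degrees of freedom. P-values are 2-sided, adjusted by Benjamini-Hochberg over 17469 genes and called under 0.05. The fit was also run on simulated data with independent normal noise. These held no arrays that stand apart, so that run does not bear on such arrays. Full values are given for called members, the 4 members of lowest p in each comparison, and Tfeb, Smpd1, Asah1, Npc1, Lamp1 and Pla2g15; a few others named with values, Ctsd, Sgsh, Neu1, Lipa and Atg5 among them, were chosen after their values were seen. Of related lists, up to 3 genes of lowest p could be named. Members and lists were chosen with earlier results of these data known. Alternatives were no filter or a 50th percentile one, all probe sets or their mean, trend and robust moderation, array weights, renewed quantile normalization, a replicate block, each array left out, both deviating arrays left out, and only the arrays compared. A lone array left in a group was assumed to vary like the others. Figures used matplotlib 3.10.9 (Python 3.11.15).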

Additional observations from a re-analysis of the deposited data

How the results depend on the processing

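No call of a member changed direction under the 22 alternatives. The 2 members called under mirtazapine became 0 with no filter (0.861% of all genes called) or every probe set (1.52% of probe sets). They also became 0 with array weights (0.63% of all genes) or only the 4 arrays compared (0.0801%). With the replicate block 1 was called (Gpnmb, where 1.34% of all genes were), and Wipi1 had an adjusted p of 0.0581. Without both arrays that stand apart, mirtazapine rested on replicate 1 alone, and neither the Gpnmb nor the Wipi1 call held. The differences of that array were 0.515 for Gpnmb, −0.405 for Wipi1 and −0.655 for Ctsz. Leaving out single arrays gave 0 to 4 members called under mirtazapine (4 of 43 without either duloxetine array, where 7.59% of all genes were called). The count was 0 to 1 under imipramine (1 of 43 without either duloxetine array, where 0.166% were). It was 0 to 0 under amitriptyline, citalopram and for amitriptyline minus imipramine. For duloxetine, the mean of the drugs and the F test it moved only without duloxetine replicate 1, where duloxetine rested on replicate 2 alone. With array weights Gpnmb was the 1 member called under amitriptyline (1.27% of all genes called), imipramine (0.733%) and for the mean of the drugs (1.04%). Without both arrays that stand apart it was the 1 member called under amitriptyline (1.31%) and imipramine (0.481%). Gpnmb then also passed for the mean of the drugs and in the F test, but in both of these duloxetine and mirtazapine rested on 1 array each. The median member difference with mirtazapine was 0.0729 after renewed quantile normalization, against −0.02. Leaving out single arrays moved the medians within −0.04 to 0.06 for amitriptyline, −0.02 to 0.09 for imipramine, −0.035 to 0.09 for citalopram, −0.06 to 0.02 for mirtazapine, −0.115 to 0.005 for duloxetine, −0.08 to −0.03 for amitriptyline minus imipramine and −0.05 to 0.06 for the mean of the drugs. The cause of these moves was not tested. Samples of the same number were not treated as paired. Their deviations correlated above 0.1 in 4 of 15 pairs of groups (−0.44 to 0.71), and both arrays that stand apart are replicate 2. With 2 arrays a group this check cannot show that the samples were unpaired. The replicate block is given only here, and its other calls of members were the same.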
